A study of Mus musculus with 4 samples.

Results

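Melanin-concentrating hormone (MCH) and orexin are peptides of the lateral hypothalamus, and 5 genes of the 19465 features in the data encode their precursors and receptors. Pmch encodes the MCH precursor and Hcrt the precursor of orexin A and orexin B, while Mchr1 encodes the MCH receptor of rodents and Hcrtr1 and Hcrtr2 the orexin receptors. The genes were taken by symbol, and all 5 were found. They were chosen with earlier values of these sections known, in particular the near absence of both peptide RNAs from 1 section, so the values of Pmch and Hcrt by section, area and diet are given as a description without a test. Tests were read for the receptors.

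MCH neurons and orexin neurons are neighbouring but separate cell groups of the lateral hypothalamus and zona incerta, and both send axons through most of the brain. MCH promotes feeding and energy storage and is active during sleep. Orexin sustains wakefulness and motivated behaviour, and loss of orexin signalling causes narcolepsy. MCHR1 and the orexin receptors are G protein-coupled receptors that are made by many neurons far from the peptide cells.

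In Visium-FFPE, RNA of formalin-fixed tissue is detected by hybridised probes that are captured on barcoded spots, with neighbouring spots 100 µm apart, so that a spot holds several cells or parts of cells. The 4 coronal sections came from wild-type C57BL/6J male offspring at postnatal day 21. Mothers had received 2 mg/kg folic acid (MF group, median folate in the labels, 2 sections) or 20 mg/kg (HF group, 2 sections) from before mating through pregnancy and lactation. Each section is treated as 1 biological replicate; litters were not given. After spots with fewer than 500 unique molecular identifiers (UMIs) or 250 genes were removed, 13452 spots remained, between 3197 and 3598 per section, with 34982061 to 90096877 UMIs per section. MF replicate 1 was the deepest section, at a median of 23543.5 UMIs per spot against 9286 to 12074.5 in the others. The sections used the same array layout, and 2649 to 3110 barcodes were shared by each pair of sections at the same array positions, as that layout gives. Levels are CPM, the UMIs of a gene scaled to the total UMIs of a section or area, and intervals are exact 95% Poisson intervals that cover counting error only.

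HF replicate 2 stood apart from the other sections in its hypothalamic genes. Genes of the paraventricular and supraoptic nuclei, which lie in the anterior hypothalamus, were higher there than in any other section for 7 of 7 measured, with Avp at 469 CPM against 2.64 to 11.3 and Sim1 at 6.40 CPM against 0.888 to 1.40. Genes of the posterior hypothalamus and subthalamic region were lower for 7 of 7, with Hdc, the enzyme of histamine synthesis, at 0.494 CPM against 8.05 to 13.8. Arcuate genes were lower for 6 of 7, with Agrp at 0.353 CPM against 16.9 to 22.1. Cholinergic genes of the basal forebrain were higher for 6 of 6. Ventromedial genes were lower for 4 of 5 and higher for 1, Fezf1. Suprachiasmatic genes were mixed: of 6, 2 were higher, 2 lower and 2 within the range of the other sections. Over the 11517 features with a mean of at least 5 CPM, this section lay above the other 3 for 30.4% and below them for 31.9%. Which coronal level each section held is not labelled. Peptide values are therefore given by section, and tests and likeness also without it where that changed a call or a list.

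**Figure D1:**
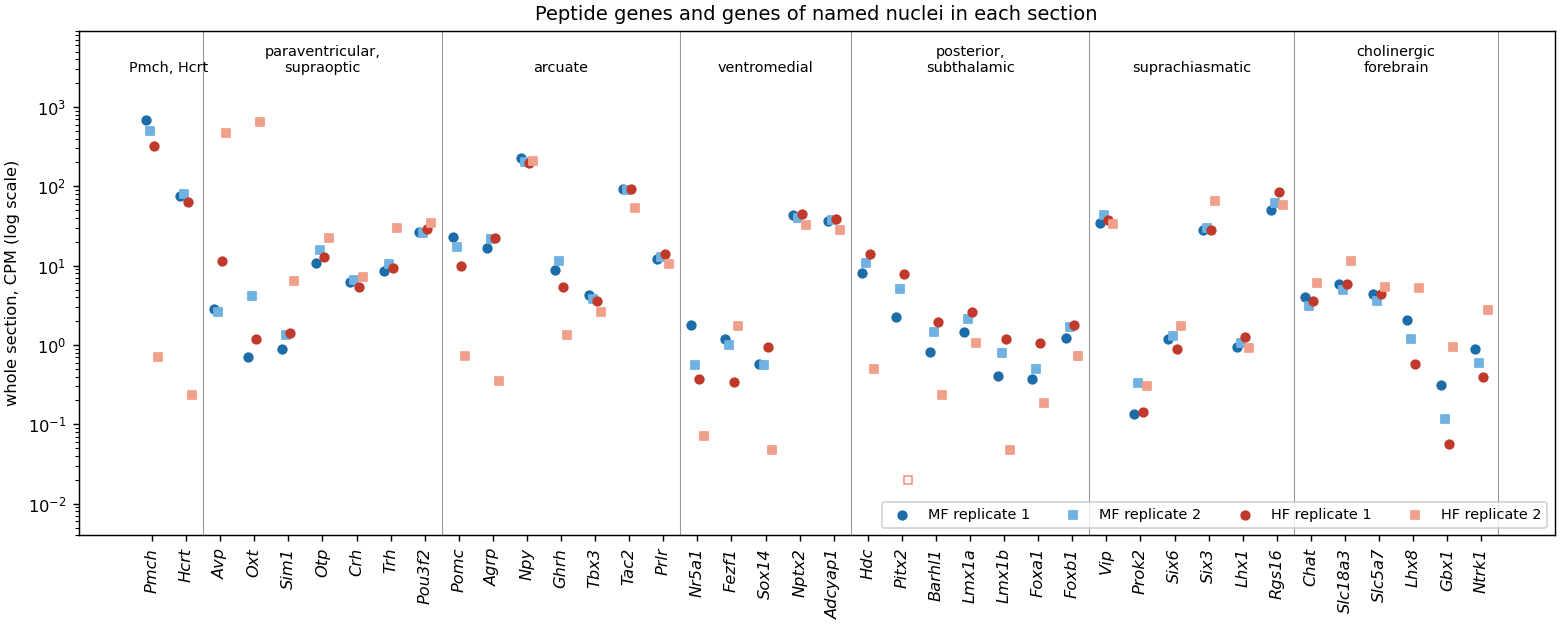
Whole-section level (CPM, log scale) of Pmch, Hcrt and genes of named hypothalamic nuclei and the cholinergic forebrain in each section, 1 point per section; the open square marks a count of 0. HF replicate 2 lies below the other sections for Pmch, Hcrt and 7 of 7 posterior genes and above them for 7 of 7 paraventricular and supraoptic genes.

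Pmch (ENSMUSG00000035383) lies on the plus strand of GRCm38 at chr10:88091072-88092375, and Hcrt (ENSMUSG00000045471) on the minus strand at chr11:100761069-100762931. The 150 bases before the start of each gene are shown from RefSeq (GRCm38.p6, strand of the gene), with the TATAAA motif of a TATA box in capitals.
Pmch, chr10:88090922-88091071, plus strand: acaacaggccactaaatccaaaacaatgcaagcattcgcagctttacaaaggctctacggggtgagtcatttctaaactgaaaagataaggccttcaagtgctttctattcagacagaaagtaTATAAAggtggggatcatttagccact
Hcrt, chr11:100762932-100763081, minus strand: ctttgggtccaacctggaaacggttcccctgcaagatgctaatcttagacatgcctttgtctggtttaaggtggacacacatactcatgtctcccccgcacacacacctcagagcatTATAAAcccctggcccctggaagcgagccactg
Each window held 1 TATAAA on the strand of the gene and none on the other strand, beginning 27 bases before the start of Pmch and 33 before that of Hcrt. The letters TATAAA were found on either strand in 7.57% of 32851 mouse windows of the same length, and on the gene's strand within 40 bases of the start in 2.31%. A match in these letters is not evidence of a working site. The GC content of the whole window was 40.7% for Pmch and 52.7% for Hcrt.

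Pmch was abundant in 3 sections and nearly absent from the fourth. It had 62019 UMIs (688 CPM) in MF replicate 1, 21084 (497 CPM) in MF replicate 2, 11217 (321 CPM) in HF replicate 1 and 30 (0.706 CPM, 0.476 to 1.01) in HF replicate 2. The fourth section thus held 0.141% of the mean level of the others, the lowest share of all 11517 features with a mean of at least 5 CPM. Hcrt, at 76.4, 80.8, 63.8 and 0.235 CPM in the same order, had the next lowest share, 0.319%. No other feature was below 1%, and 6 in all were below 10%, the others being Agrp, Pomc, Hdc and Npw. In bulk sums over spots, fewer cells of a type and less RNA per cell cannot be told apart.

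The 30 Pmch UMIs of HF replicate 2 were spread over 30 spots with 1 UMI each. Of these, 15 lay in the hypothalamic area, 4 in the thalamus, 4 in white matter and 1 in the cortex. Only 3 of them (10%) were at barcodes that held concentrated Pmch in another section, and 8.14% of its spots had such barcodes. Of the 10 Hcrt UMIs, 1 was in the hypothalamic area and 5 in the thalamus, and 3 were at barcodes with concentrated Hcrt in another section, against 3.47% of its spots. Pmch in that section had a Moran's I, a score of spatial clustering given by Space Ranger, of 0.0145, against 0.617 to 0.807 in the other sections, where it ranked 3, 17 and 5 of 18235, 17196 and 16731 features in MF replicate 1, MF replicate 2 and HF replicate 1.

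Another gene overlaps Pmch in the annotation. Parpbp, a DNA repair gene on the opposite strand, shares 944 bases of gene and 435 bases of exon with Pmch. Parpbp had 1.54 to 2.40 CPM in the 4 sections, with 1.88 CPM in HF replicate 2, so its level did not follow that of Pmch.

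**Figure D2:**
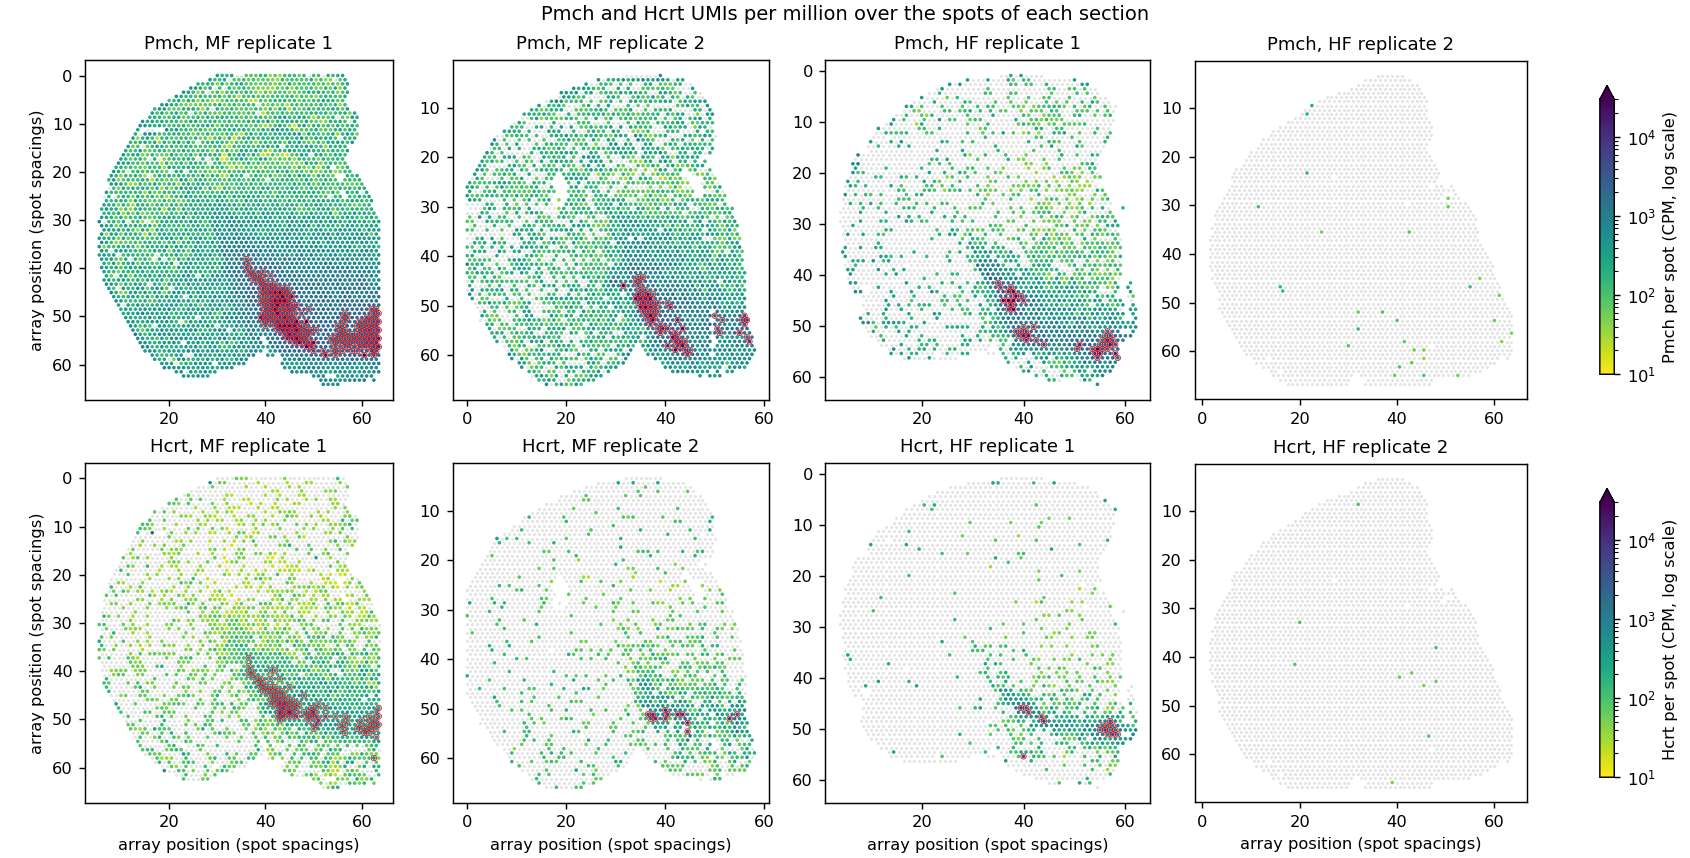
Level of Pmch (upper row) and Hcrt (lower row) in each spot (CPM, colour on a log scale; grey, no UMI), drawn at array positions in spot spacings of 100 µm, 1 panel per section; red rings mark the source spots. MF replicate 1 had 201 Pmch and 97 Hcrt source spots, and HF replicate 2 had 0 of both.

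Spots were grouped into areas by clustering without the 5 genes, and areas were named from lists of marker genes, so a name describes a profile of a spot and not its histology. In the hypothalamic area (543 to 681 spots per section, 17 of 18 marker genes highest in it), Pmch was at 3116, 1920.05 and 1429 CPM in MF replicate 1, MF replicate 2 and HF replicate 1, and at 2.13 CPM in HF replicate 2. Hcrt was at 333, 355 and 287 CPM there, and HF replicate 2 held 1 UMI. Among the 3 sections with peptide RNA, Pmch thus spanned a wider range than Hcrt in this area. Nearly all of it was in the cluster led by Dlk1 and Irs4, at 3851, 2429 and 1627 CPM of Pmch, against 373, 161 and 59.0 CPM in the neighbouring hypothalamic cluster led by Ccdc42 and Nts.

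Both peptide RNAs were also counted in every other area of those sections, except that HF replicate 1 had no Hcrt UMI in the striatum, which allows up to 3.77 CPM. In the thalamus, Pmch was at 471, 284 and 85.7 CPM, and in the cortex, which lies far from the hypothalamus, at 127, 101 and 37.7 CPM. The cortical level was 4.07%, 5.27% and 2.64% of that in the hypothalamic area of the same section. Hcrt in the cortex was at 12.6, 7.76 and 2.77 CPM, or 3.77%, 2.18% and 0.967% of its hypothalamic level. Outside the hypothalamic area lay 35.2%, 27.9% and 16.3% of all Pmch UMIs and 37.6%, 17.9% and 15.6% of all Hcrt UMIs. For both genes the share outside was highest in MF replicate 1, the deepest section, and lowest in HF replicate 1. The ependymal cluster, which lines the ventricle and had only 4 to 8 spots in these sections, held 2292, 1737 and 806 CPM of Pmch.

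**Figure D3:**
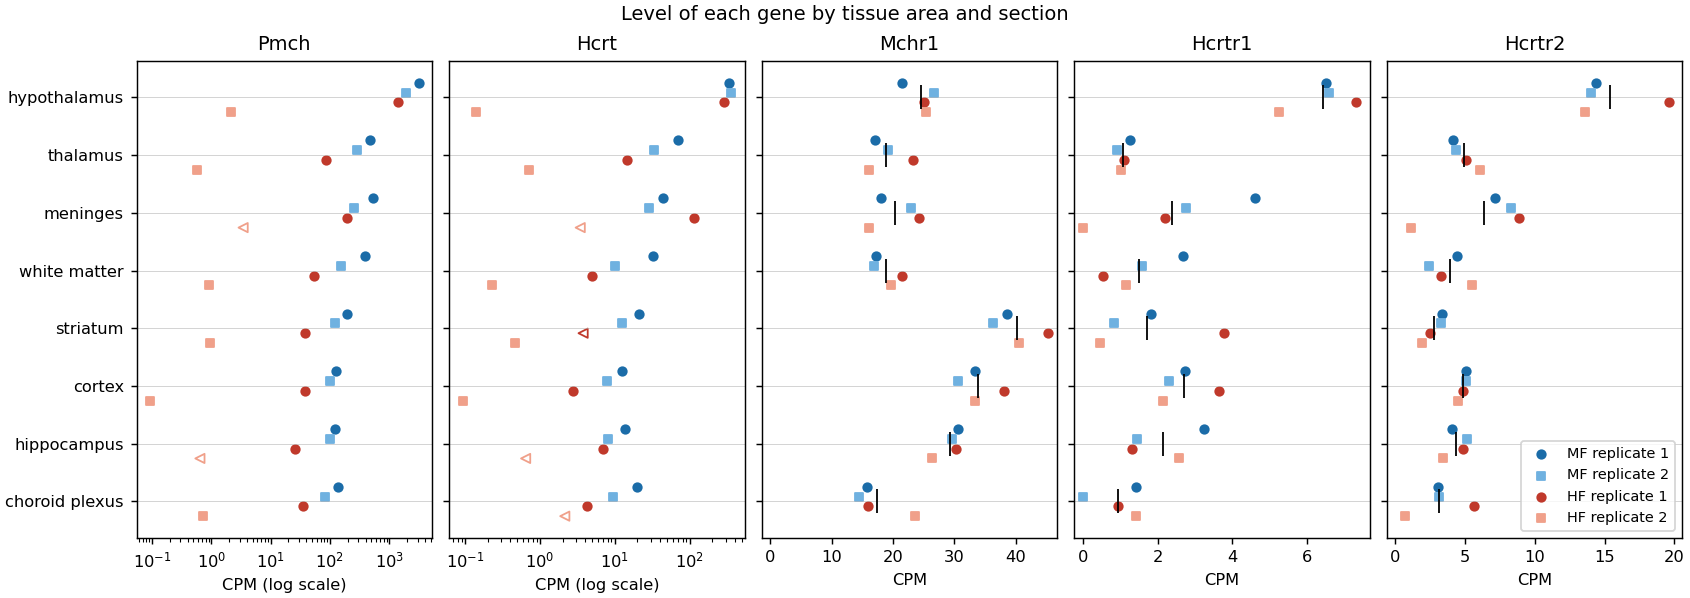
Level of each gene (CPM) by area and section; points are sections, black bars in the receptor panels are means of 4 sections, and open triangles in the log-scaled peptide panels are the limits that a count of 0 allows. Pmch and Hcrt are highest in the hypothalamic area of 3 sections, Mchr1 has its highest mean in the striatum (40.1 CPM), and Hcrtr1 and Hcrtr2 in the hypothalamic area (6.41 and 15.4 CPM).

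To follow the peptide RNA away from where it was concentrated, the source spots of a gene in a section were defined as the fewest spots that together held 50% of its UMIs and had at least 10 UMIs each. Pmch had 201, 68 and 46 source spots in MF replicate 1, MF replicate 2 and HF replicate 1, of which 188, 66 and 46 were in the hypothalamic area. MF replicate 1 also had 8 in the ependymal cluster. Most lay in a few patches, and the largest groups of touching source spots held 118 and 77 spots in MF replicate 1, 34 and 12 in MF replicate 2 and 17 and 12 in HF replicate 1. Their pooled level was 7106, 10641 and 8419 CPM. The richest single spots held 1067, 1422 and 618 Pmch UMIs.

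Hcrt was concentrated in fewer spots. It had 97, 13 and 17 source spots, at 1412, 8372 and 3745 CPM, and no spot held more than 292 UMIs. After every spot was thinned to 5000 UMIs, the minimum of 10 UMIs ended the Hcrt sources at 28.7%, 46.6% and 37.7% of the UMIs, so their thinned numbers, 17, 14 and 13, are not of like extent. The thinned Pmch sources reached 50.1%, 50.1% and 50.4% of the UMIs with 167, 73 and 33 spots, so MF replicate 1 still had the most.

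The sources of both peptides overlapped to a different extent in each section, and overlap at equal depth was not measured. MF replicate 1, the deepest section, had 97 Hcrt sources reaching down to 10 UMIs. MF replicate 2 and HF replicate 1 had 13 and 17, reaching down to 55 and 18 UMIs. The counts of shared spots and the distances are thus not on the same footing between sections. In MF replicate 1, 68 spots were sources of both genes, which is 33.8% of the Pmch sources and 70.1% of the Hcrt sources. In MF replicate 2 there were 4 such spots (5.88% and 30.8%) and in HF replicate 1 only 1 (2.17% and 5.88%). The median distance from a Pmch source to the nearest Hcrt source was 1, 2.65 and 3.53 spot spacings in the same order, and 55.7%, 22.1% and 8.70% of the Pmch sources lay within 1 spacing of one. No Pmch source lay more than 7.21 spot spacings from an Hcrt source in any of the 3 sections. A shared spot can hold cells of both kinds and does not show both RNAs in 1 cell.

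Pmch declined steeply with distance from its sources and then levelled off. In spots next to a source (1 spacing) it was at 2057, 1422 and 1555 CPM, or 28.9%, 13.4% and 18.5% of the source level. At 6 to 10 spacings it was at 489.8, 282 and 137 CPM. At 21 to 30 spacings it was at 148, 105 and 38.0 CPM, and over 30 spacings, more than 3 mm away, still at 132, 115 and 43.3 CPM. Between the last 2 bins the level did not decline in 2 of the 3 sections. Over all spots more than 20 spacings away, the level was 142 (139 to 146), 109 (104 to 114) and 40.2 (37.1 to 43.5) CPM, or 2.00%, 1.02% and 0.478% of the source level (mean 1.17% ± 0.77, SD, n = 3).

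At least 1 Pmch UMI was found in 96.8%, 67.4% and 30.2% of these remote spots. The shares fell in the order of the median UMIs per spot in these spots, 26286, 10298 and 8410.5, and the CPM had the same order. The CPM kept this order when spots were thinned to equal depth and sources drawn again. Remote Pmch was then at 157, 122 and 38.9 CPM in MF replicate 1, MF replicate 2 and HF replicate 1. The cause of the order was not tested. In HF replicate 2, which had no source, 0.897% of all spots had a Pmch UMI, at a median of 11831 UMIs per spot.

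Hcrt followed the same course at lower counts. It was at 261, 473 and 594 CPM next to its sources and at 15.6 (14.4 to 16.9), 9.59 (8.37 to 10.9) and 3.92 (3.06 to 4.96) CPM more than 20 spacings away. These are 1.10%, 0.115% and 0.105% of the source level (mean 0.44% ± 0.57, SD, n = 3). In MF replicate 1 the minimum of 10 UMIs ended the source at 45.6% of the Hcrt UMIs and its source level was the lowest, so its share is not on the same footing as the others. For both peptides the order of the remote levels was MF replicate 1, MF replicate 2, HF replicate 1.

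The remote share depended on how the source was drawn. With sources drawn at 25% of the UMIs, remote Pmch was 0.316% of the source level on average, and with 75% it was 3.25%, since a broader source has a lower level. The remote CPM itself hardly moved, from 133 to 149 CPM in MF replicate 1 over these choices.

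Other RNAs with a local source were measured in the same way, 12 in all. Agrp of the arcuate nucleus was at 0.127% ± 0.04 of its source level more than 20 spacings away (SD, n = 3), and Ttr of the choroid plexus at 0.245% ± 0.11 (n = 4). The anterior peptides Avp and Oxt, with 24 and 20 source spots in HF replicate 2, were at 71.8 and 101 CPM more than 20 spacings away in that section, or 0.373% and 0.313% of their source levels, and Avp had a UMI in 50.9% of those spots. Remote Pmch, at 0.478% to 2.00%, was above the shares of these 4 genes in each section, and remote Hcrt overlapped them. The mean share was 0.214% for Pomc, 0.708% for Dsp, 1.01% for Trh and 1.23% for Gal, and between 2.36% and 4.67% for C1ql2, Tac2, Prkcd and Cartpt. Pmch thus lay within the range of these genes, but their sources were not of like extent. The minimum of 10 UMIs ended the sources of Dsp, C1ql2, Trh, Gal and Cartpt short of 50% of the UMIs in every section. Trh sources held only 3.03% to 12.4% and Gal sources 1.56% to 18.7%. In HF replicate 1, Pomc, Trh and Gal had 1 source spot each. Tac2 sources lay in several areas. Prkcd sources held 50.1% in every section. Whether remote UMIs came from RNA that moved during the assay, from axons or from cells outside the sources was not tested.

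**Figure D4:**
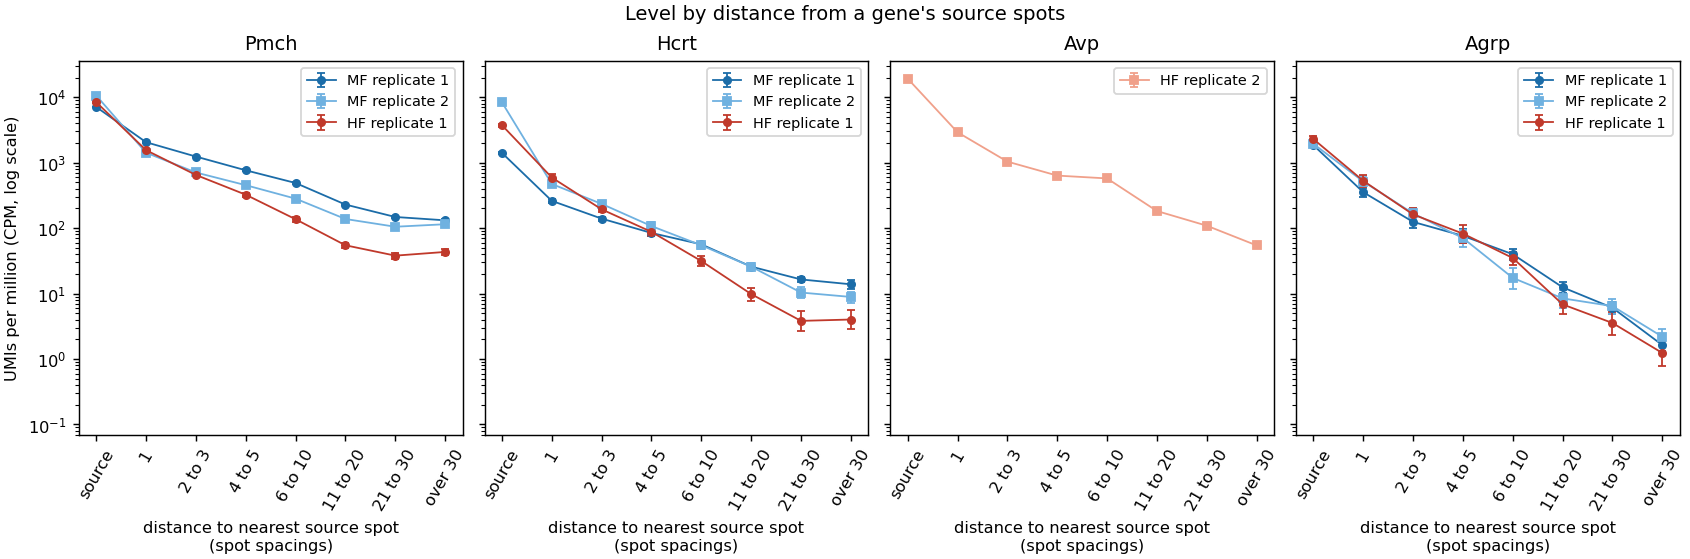
Level (CPM, log scale) of Pmch, Hcrt, Avp and Agrp in spots grouped by distance to the nearest source spot of the same gene. Distance is in spot spacings of 100 µm, and each line is 1 section. Sections with few or no source spots of a gene are not drawn. For Avp only HF replicate 2 (24 source spots) is drawn, since MF replicate 1, MF replicate 2 and HF replicate 1 had 3, 1 and 1. Error bars are 95% Poisson intervals. Pmch stayed at 43.3 to 132 CPM over 30 spacings away, and Agrp was below 2.2 CPM there.

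The ratio of Pmch to Hcrt UMIs gave a comparison between areas that does not depend on the source. It was 9.35 (9.06 to 9.65), 5.40 (5.19 to 5.63) and 4.98 (4.74 to 5.24) in the hypothalamic area of MF replicate 1, MF replicate 2 and HF replicate 1. In the cortex it was 10.1 (8.96 to 11.4), 13.03 (10.1 to 17.1) and 13.6 (8.52 to 22.9). In MF replicate 2 and HF replicate 1 the cortical ratio was thus above the hypothalamic ratio beyond counting error, and in MF replicate 1 the intervals overlapped. The thalamic ratios, 6.68 (6.30 to 7.09), 8.61 (7.68 to 9.69) and 5.84 (4.89 to 7.004), were lower than the cortical ratios in each section, and in MF replicate 1 the thalamic ratio was also below the hypothalamic ratio beyond counting error. The hippocampal ratio of HF replicate 1 was 3.71 (2.27 to 6.33), with an interval that held the hypothalamic ratio. In the meningeal area, HF replicate 1 had the lowest ratio of all, 1.75 (1.37 to 2.26), against 12.3 and 8.94 in the MF sections.

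Other genes of the source spots were compared with the spots of the hypothalamic area that were a source of neither peptide, as a description over the 3 sections with sources. Among 11648 features, 13.2% were higher in Pmch sources in every section and 23.3% lower. Of the genes listed for MCH neurons, 6 passed the same minimum of 5 CPM, of which 3 were higher in every section and 1 was lower. Cartpt, the precursor of the CART peptide made by many MCH neurons, was at 441, 512 and 474 CPM in Pmch sources against 232, 211 and 179 CPM elsewhere. Tacr3, the neurokinin B receptor, was at 27.7, 31.4 and 22.4 CPM against 8.72, 10.1 and 10.8. Gad1, an enzyme of GABA synthesis, was at 63.4, 60.7 and 64.1 CPM against 57.4, 42.1 and 47.1.

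Otx1, a transcription factor listed with the same group, was below the minimum but showed a like pattern, at 6.85, 13.6 and 11.9 CPM against 3.77, 2.93 and 3.38. It had 27, 13 and 8 UMIs in the sources. Parpbp of the same list, also below the minimum, was at 3.55, 3.14 and 1.49 CPM against 2.95, 2.35 and 2.13, so lower in HF replicate 1. The listed genes Nptx1 and Slc17a6 were higher in 2 and 1 of 3 sections, at mean log2 ratios of 0.005 and -0.054. Sst, the somatostatin precursor, was lower, at 404, 410.3 and 464 CPM against 789, 923 and 837. The arcuate peptides Agrp, Pomc and Npy were lower in Pmch sources in 3 of 3 sections. Of the 6 orexin-neuron genes past the minimum, 0 were higher and 0 lower in Pmch sources in every section.

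Hcrt sources had a partly different set of genes above the rest, against a background of 10.7% of features higher and 21.8% lower in every section. Of the orexin-neuron genes past the minimum, 4 of 6 were higher and 1, Nr6a1, was lower, though it had 2 UMIs each in the sources of MF replicate 2 and HF replicate 1. Pdyn, the dynorphin precursor that orexin neurons release with orexin, was at 31.6, 190.7 and 43.6 CPM against 26.4, 34.0 and 21.1. Nptx2, a neuronal pentraxin, was at 37.9, 85.8 and 46.9 CPM against 32.0, 26.3 and 21.5, and Lhx9, a transcription factor, at 12.6, 52.4 and 20.1 CPM against 11.5, 11.4 and 9.41, from 24, 11 and 6 UMIs in the sources. Scg2, a granin of secretory granules, was at 886, 2346 and 1251 CPM against 577, 630.4 and 649. The excess was largest in MF replicate 2 for each of these genes, where the Hcrt sources were fewest and richest. Cartpt of the MCH-neuron list was at 278, 157 and 73.8 CPM in Hcrt sources, above the rest in 1 of 3 sections, MF replicate 1. In that section 70.1% of the Hcrt sources were also Pmch sources, and shared spots were not taken out. Tacr3 of the same list was at 26.5, 14.3 and 16.8 CPM over all Hcrt sources, against 8.72, 10.1 and 10.8 elsewhere. It had only 55, 3 and 5 UMIs in the Hcrt sources of the hypothalamic area. Of the 6 MCH-neuron genes past the minimum, 1 was higher and 1 lower in Hcrt sources in every section.

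Among 9 peptide processing genes, 4 were higher and 1 lower in Hcrt sources in every section, and 3 were higher and 3 lower in Pmch sources. Pcsk1, the prohormone convertase that cleaves many precursors, was at 98.4, 286 and 171 CPM in Hcrt sources against 65.7, 69.3 and 77.3 elsewhere. Qpct, which forms the pyroglutamate end that orexin A carries, was higher in both kinds of source, at 69.4, 76.3 and 60.4 CPM in Hcrt sources and 65.2, 61.8 and 68.6 in Pmch sources, against 47.0 to 47.8 elsewhere. The median log2 ratio of the processing genes was 0.10 in Hcrt sources and 0.03 in Pmch sources, beside -0.08 and -0.04 over all features. Of 15 genes of receptor coupling, 2 were higher and 7 lower in Pmch sources in every section, and 1 was higher and 5 lower in Hcrt sources. Wake and feeding genes were lower in Hcrt sources for 5 of 6 and in Pmch sources for 3 of 6. Over all 11648 features, 13.2% were higher and 23.3% lower in every section in Pmch sources, and 10.7% and 21.8% in Hcrt sources. The share of coupling genes higher in Pmch sources, 13.3%, was near that of all features.

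**Figure D5:**
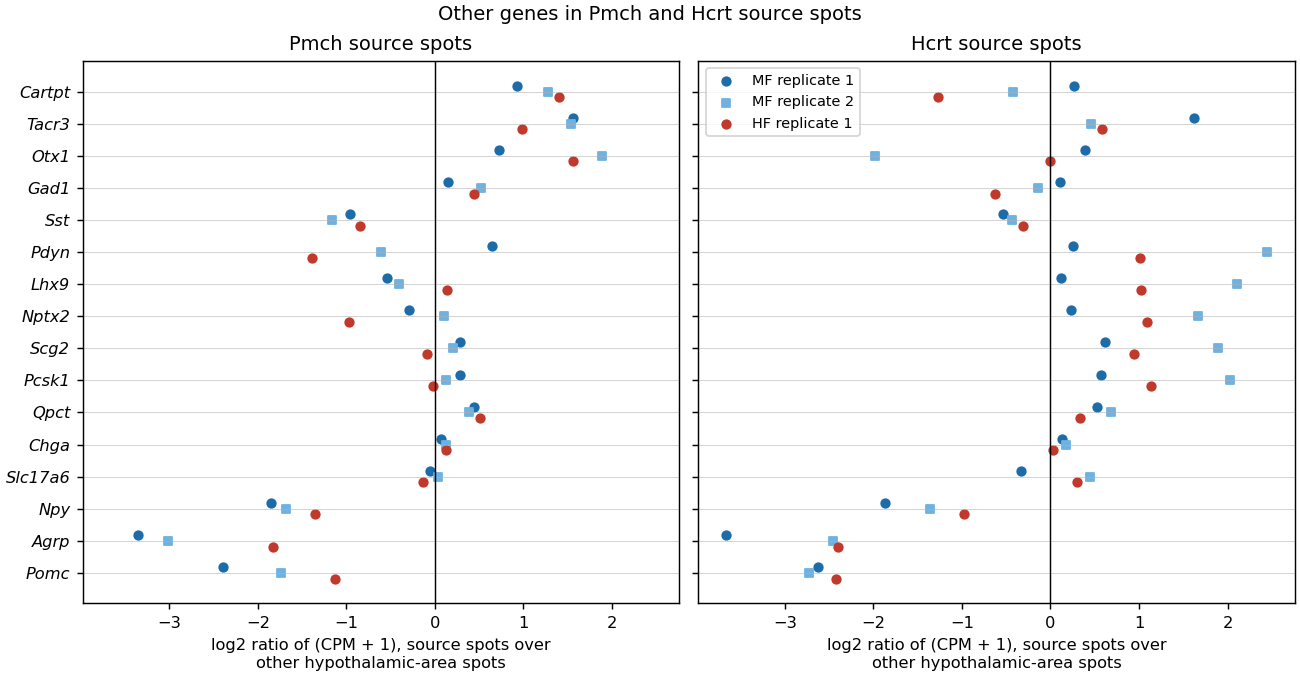
Log2 ratio of (CPM + 1) in source spots over other spots of the hypothalamic area for 16 genes, 1 point per section with sources; left, Pmch sources, right, Hcrt sources. Cartpt, Tacr3, Otx1 and Gad1 lie above 0 in Pmch sources in 3 of 3 sections, and Pdyn, Lhx9, Nptx2, Scg2 and Pcsk1 in Hcrt sources.

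The receptors were spread much more evenly than the peptides. Moran's I was between 0.0137 and 0.0774 for the 3 receptor genes over the 4 sections. Mchr1 (chr15:81235499-81238964, plus strand) was at 24.2, 24.4, 27.0 and 25.9 CPM over the whole section in MF replicates 1 and 2 and HF replicates 1 and 2. Hcrtr1 (chr4:130130217-130139359, minus strand) was at 2.94, 2.43, 2.89 and 2.31 CPM, from 98 to 265 UMIs. Hcrtr2 (chr9:76225880-76323856, minus strand) was at 5.80, 6.06, 7.63 and 5.90 CPM. All 3 receptors were thus present in HF replicate 2, where the peptide RNAs were nearly absent, with Mchr1 and Hcrtr2 within the range of the other sections and Hcrtr1 just below it.

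Receptor levels were compared between 8 areas with edgeR on UMIs summed per section and area, each area against the mean of the others with the section as a block, with p-values adjusted over 13638 features. The areas were formed without these genes, but from other genes of the same spots. Mchr1 was highest in the striatum, at 38.6, 36.2, 45.2 and 40.5 CPM (mean 40.1 ± 3.81, SD, n = 4). The striatal level was 0.86 log2 above the other areas (SE 0.10, edgeR adjusted p = 1.56e-09), and 12.2% of all features were called higher there. The cortex followed at 33.8 ± 3.13 CPM, called higher by 0.64 log2 (SE 0.06, adjusted p = 2.07e-12) beside 19% of features, and it was below the striatum in 4 of 4 sections although the ranges overlapped. The hippocampus, at 29.2 ± 1.91 CPM, was called higher by 0.38 log2 (adjusted p = 9.03e-05) beside 15.9% of features. That call was lost when spots were thinned to 5000 UMIs, at 0.11 log2 and adjusted p = 0.657.

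In the hypothalamic area Mchr1 was at 24.6 ± 2.26 CPM, 0.06 log2 below the mean of the other areas (SE 0.07, adjusted p = 0.469), so the area that held the MCH sources was not called for the MCH receptor. Mchr1 was called lower in the choroid plexus (-0.66 log2, adjusted p = 2.94e-06, beside 15.3% of features), the thalamus (-0.34 log2, adjusted p = 6.39e-05, beside 22.8%), white matter (-0.38 log2, adjusted p = 0.000498, beside 18.8%) and the meninges (-0.43 log2, adjusted p = 0.00958, beside 13.6%). Of these, only the white matter call was kept in every alternative: those in the choroid plexus, thalamus and meninges were lost with thinned spots (-0.62, -0.25 and -0.45 log2), and that in the meninges also without MF replicate 1 (-0.39 log2) and with library size alone (-0.30 log2). The means of these 4 areas, 17.5 to 20.3 CPM, had overlapping ranges and no firm order. Ranges of neighbours in the order from striatum to hypothalamus also overlapped, but each was above the next in 4 of 4 sections.

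Within areas, clusters were set side by side without a test. In the hippocampus, the cluster led by the pyramidal-layer genes Fibcd1 and Spink8 had 39.4, 35.1, 33.6 and 38.0 CPM, and the dentate gyrus cluster led by Dsp and C1ql2 had 21.8, 23.2, 27.6 and 15.4 CPM, without overlap. In the thalamus, the cluster led by Tnnt1 and Prkcd had 12.55 to 14.7 CPM, below the 16.6 to 24.99 CPM of the cluster led by Gbx2. Such a separation was found for 14.1% of 13260 features in the hippocampus and for 10.1% of 13276 in the thalamus. In the cortex, the cluster led by Lamp5 had 34.7 to 44.5 CPM and that led by Nxph3 27.3 to 31.9 CPM, without overlap, as for 10.3% of 13154 features, and the cluster led by Myl4, at 23.7 to 40.9 CPM, overlapped both. These shares are of features with a mean of at least 1 CPM over the clusters compared.

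Hcrtr1 was highest in the hypothalamic area, at 6.51, 6.57, 7.31 and 5.25 CPM from 84, 52, 48 and 37 UMIs. It was 1.78 log2 above the other areas (SE 0.18, edgeR adjusted p = 1.08e-11), and 17.4% of all features were called higher there. The next area was the cortex, at 2.70 ± 0.68 CPM (SD, n = 4). The cortical level was itself called higher by 0.48 log2 (adjusted p = 0.0391), but the call was lost without MF replicate 2, HF replicate 1 or HF replicate 2, at 0.44, 0.36 and 0.42 log2, and with library size alone, at 0.39 log2. Hcrtr1 was called lower in the thalamus, at 1.07 ± 0.15 CPM (-0.99 log2, adjusted p = 0.000865), and in the choroid plexus (-1.25 log2, adjusted p = 0.0136). The thalamic call was lost without MF replicate 1, at -0.78 log2, and that in the choroid plexus without MF replicate 1 or MF replicate 2, at -1.43 and -1.01 log2, and at resolution 0.5 of the clustering, at -0.63 log2. The other 4 areas had means of 1.49 to 2.39 CPM and overlapping ranges.

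Cortical Hcrtr1 was uneven. The deep cluster led by Trbc2, Nxph3 and Ccn2, a profile of layer 6 genes, had 5.31, 5.18, 6.28 and 4.31 CPM from 45, 13, 16 and 15 UMIs. The upper cluster led by Lamp5 had 0.258, 0.354, 0.464 and 0.932 CPM from 2, 1, 1 and 3 UMIs, and the cluster led by Myl4 and Fezf2 lay between them at 1.23 to 3.72 CPM. The deep and upper clusters did not overlap, as was the case for 10.8% of 13154 features higher in the deep cluster.

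Hcrtr2 was also highest in the hypothalamic area, at 14.4, 14.03, 19.6 and 13.6 CPM, 1.75 log2 above the other areas (SE 0.12, edgeR adjusted p = 9.73e-17). Among the 8 areas tested, the next mean was 6.34 ± 3.53 CPM in the meninges. The ependymal cluster, too small to test, had 6, 0, 0 and 2 UMIs of Hcrtr2. Hcrtr2 was called lower in the choroid plexus (-0.78 log2, adjusted p = 0.0128) and in the striatum, at 2.76 ± 0.70 CPM (-0.89 log2, adjusted p = 0.0248, beside 12.5% of features). The striatal call rested on 21 UMIs and was lost without any 1 of the 4 sections, at -0.75 to -1.10 log2, and that in the choroid plexus was lost without MF replicate 1, at -0.68 log2, and with thinned spots, at -0.05 log2. The other areas had means of 3.90 to 4.89 CPM and no firm order. In the cortex Hcrtr2 had the same depth profile as Hcrtr1, with 7.68, 7.97, 7.46 and 6.90 CPM in the deep cluster and 1.93, 1.77, 1.86 and 1.86 CPM in the upper one.

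Within the hypothalamus the receptors were also set side by side in both clusters. Hcrtr2 had 16.0, 15.6, 21.4 and 14.1 CPM in the cluster led by Dlk1, which held the peptide sources, and 8.44, 8.44, 7.23 and 10.4 CPM in the cluster led by Ccdc42. Mchr1 was the reverse, at 20.4, 25.1, 23.9 and 24.0 CPM in the first and 25.3, 32.1, 32.5 and 34.2 CPM in the second, where the highest value of the first cluster (25.09 CPM) was close to the lowest of the second (25.32 CPM). Neither gene overlapped between the clusters, and 11.1% of 13582 features were higher without overlap in the cluster led by Dlk1 and 7.56% in that led by Ccdc42. Hcrtr1 overlapped, at 6.69, 6.84, 7.14 and 5.59 CPM in the first and 5.87, 5.63, 8.43 and 3.11 CPM in the second. By distance, Hcrtr2 was at 16.2, 11.2 and 21.0 CPM within 1 spacing of a Pmch source, at 15.5, 18.03 and 22.4 CPM at 2 to 5 spacings and at 8.14, 10.3 and 11.6 CPM over 5 spacings away. Its counts within the Hcrt sources were only 24, 2 and 1 UMIs, so no level is read there. Hcrtr1 had 18, 4 and 3 UMIs in Hcrt sources, and over 5 spacings from a Pmch source it was at 5.70, 4.92 and 9.58 CPM, against 6.57, 6.43 and 8.40 CPM within 1 spacing.

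The last comparison was between the diets. For the peptides it rests on HF replicate 2. Pmch in the hypothalamic area was 3116 and 1920.05 CPM in the MF sections and 1429 and 2.13 CPM in the HF sections, and Hcrt 333 and 355 against 287 and 0.142 CPM. Without HF replicate 2, a single HF section remains, which was below both MF sections for both peptides. In the cortex it also had less Pmch, at 37.7 CPM against 101 and 127. Diet and the level of the section cannot be told apart for these genes.

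For the receptors, HF and MF were compared with edgeR on UMIs summed per section in the whole section and in each area. In the 20 tests for which the counts sufficed, no receptor was called at an adjusted p under 0.05 and at least 1.2-fold. Over the whole section 0% of 14971 features were called (1018 had an unadjusted p under 0.05, and DESeq2 called 22), and in the hypothalamic area 0% of 13413 (855, and 6 by DESeq2). Mchr1 differed by 0.11 log2 (SE 0.08, adjusted p = 0.778), Hcrtr1 by -0.07 log2 (SE 0.19, adjusted p = 0.947) and Hcrtr2 by 0.18 log2 (SE 0.15, adjusted p = 0.807), HF over MF, in the whole section. In the hypothalamic area the values were 0.07 (SE 0.15), -0.07 (SE 0.25) and 0.21 (SE 0.20) log2. In the striatum, where Mchr1 was highest, it differed by 0.15 log2 (SE 0.21, adjusted p = 0.946) beside 0.0358% of features called. Features called made up 0.114% for the cortex, 0.0324% for hippocampus, 0.224% for choroid plexus and 0% for thalamus, meninges and white matter. On simulated counts of the same depth, 96% of 2-fold changes were recovered in the whole section but 50% of 1.5-fold changes, and in the hypothalamic area 86.5% and 19.5%. The simulation gave all features the same scatter between sections and changed 200 of them. In the real fit of the hypothalamic area, Tac2 differed by -1.02 log2 (SE 0.16, edgeR adjusted p = 0.761) and was not called. Changes of 2-fold could thus be missed as well as smaller ones.

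Genes that act with these peptides were read in the same fits. Of the genes listed for MCH neurons (8 tested), for orexin neurons (7), for peptide processing (9), for receptor coupling and effectors (16) and for wake and feeding targets (10 in the whole section and 8 in the hypothalamic area), none was called in either direction in the whole section or the hypothalamic area. Their median differences over the whole section were -0.06, 0.09, -0.07, -0.01 and -0.28 log2, beside 0.00 over all features. In the hypothalamic area they were -0.19, -0.10, -0.08, -0.03 and -0.52 log2. Without HF replicate 2 the medians were -0.11, 0.12, 0.05, 0.00 and -0.12 log2 in the whole section and -0.14, -0.19, 0.09, -0.02 and -0.24 log2 in the hypothalamic area. The lowest medians were those of the wake and feeding list, which holds Hdc, Agrp and Pomc, all low in HF replicate 2. With a section left out, some members of each list were called in some fits, as were features outside the lists. Such a fit leaves a single section in a diet group, so these calls are not read.

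Over the 32 sums of area and section, the gene with the pattern most like Pmch among 11733 candidates was Hcrt (Pearson r = 0.93 of log2(CPM + 1)), followed by Cpsf1, Sarnp, Snrpn and Cct7 (0.85 to 0.88). For Hcrt it was Pmch, then Hdc, Asb4, Tmem59 and Cct7 (0.81 to 0.85). These values share sections and depth and are a description. Without HF replicate 2, over 24 sums, r between Pmch and Hcrt was 0.92, but only 1 of the 5 genes most like each peptide, the other peptide, was the same. The others were then Ppp1r17, Gabrq, Tasp1 and Frs3 for Pmch (0.89 to 0.92) and Ppp1r17, Frs3, Nap1l5 and Npw for Hcrt (0.89 to 0.94). The gene most like Hcrt was then Ppp1r17 (0.94), ahead of Pmch. Genes most like Mchr1 included Gm42517, Dpf1, Elmod1 and Ppp1r9a (0.86 to 0.92), those most like Hcrtr1 were Snu13, Smim10l2a, Rwdd2a, Cmip and 9530077C05Rik (0.74 to 0.81), and those most like Hcrtr2 were Kcna3, Rwdd2a, Atg9b, Minar2 and Pak3 (0.83 to 0.88). Of the 5 genes most like Mchr1, Hcrtr1 and Hcrtr2, 3, 2 and 3 were the same without HF replicate 2. Over single spots of the hypothalamic area, averaged over the 3 sections with sources, Pmch was most like Itih3 (0.44), Sparc (0.43), Hcrt (0.42), Slc6a11 (0.40) and Nap1l5 (0.35). Hcrt was most like Pmch (0.42), Dlk1 (0.32), Ebf3 (0.31), Sparc (0.30) and Nxph4 (0.28). Correlations over spots are weak and share each section's depth.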

How the data were processed

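Visium-FFPE probe reads of 4 sections were mapped by the authors to mm10 with Space Ranger (2.0.0 in the file headers) and processed with Seurat. The deposited values are raw UMI counts per feature and spot, without normalization, with array positions. A deposited table also holds, for each feature, the score Moran's I for spatial clustering, and its p-values were not used. The study's limits of 500 UMIs and 250 genes per spot were applied, which took out 18 spots. The members and gene lists were chosen with earlier results of these data known.

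For areas, counts were scaled to CPM and log-transformed, and 2000 variable features (42 features, among them the members, left out) gave 30 principal components, 20 neighbours and 18 Leiden clusters at resolution 1 (scanpy 1.11.5, leidenalg 0.10.2). The study's Harmony step was left out. Each cluster was given the area with the most markers, at least 3, among its 50 leading features, and 3 clusters stayed unnamed. The choroid plexus area also had habenula genes such as Gpr151 and Pou4f1 among its leading features. One meningeal cluster, led by Scn7a, had no spot in HF replicate 2.

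UMIs were summed per section and area, since spots are not replicates, and tested in edgeR 4.0.16 under R 4.3.3 (quasi-likelihood, TMM scaling, filterByExpr, Benjamini-Hochberg over all features). A feature was called at an adjusted p under 0.05 and at least 1.2-fold. The study tested single spots with a Wilcoxon test. Scripts were tested on simulated data. Alternatives were DESeq2 1.42.0, library size alone, no filter on low counts, a replicate block and its crossed form (chosen after seeing the data, as was likeness without HF replicate 2), spots thinned to 5000 UMIs, a resolution of 0.5, other source definitions and each section left out in turn. Named genes are the 5 members, genes of the lists and the 5 features most like each member, of which 1 is not reported here. Promoter windows come from RefSeq on GRCm38.p6, and gene positions from the GRCm38 annotation.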

Additional observations from a re-analysis of the deposited data

How the results depend on the processing

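Between the diets no receptor was called in any area under any of the 11 alternatives. The number of features called moved. DESeq2 called 22 in the whole section, 6 in the hypothalamic area and 1 in the striatum, and no filter on low counts gave 1, 22 and 9. Leaving out 1 section at a time gave 0 to 1124 calls in the whole section, 0 to 834 in the hypothalamic area and 0 to 126 in the striatum, and the high values came without HF replicate 1 (1124, 834 and 126) or HF replicate 2 (812, 549 and 29). For the lists of MCH neurons, orexin neurons, processing, coupling, and wake and feeding genes, members called ran from 0 to 2, 0 to 4, 0 to 2, 0 to 3 and 0 to 5 in the whole section, and from 0 to 4, 0 to 4, 0 to 3, 0 to 2 and 0 to 7 in the hypothalamic area. The cause was not tested.

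Same-numbered sections of MF and HF did not deviate together (r = -0.16 in the whole section and -0.15 in the hypothalamic area). This cannot settle whether they were processed together, which the labels do not say. With a replicate block 0, 1 and 4 features were called in the whole section, the hypothalamic area and the striatum, and with the crossed pairing 8, 48 and 22.

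Small receptor differences between the diets changed sign. Mchr1 in the hypothalamic area was at -0.055 log2 with thinned spots and ran from -0.093 (without MF replicate 1) to 0.22 with 1 section left out. Hcrtr1 in the whole section was at 0.18 thinned and ran from -0.24 to 0.088, above 0 without MF replicate 1 (0.088) and HF replicate 2 (0.06). Hcrtr1 in the hypothalamic area was at 0.23 thinned and ran from -0.32 to 0.14 (without HF replicate 2). Hcrtr2 in the hypothalamic area ran from -0.070 (without HF replicate 1) to 0.44. Between areas, the calls of Mchr1 in the striatum, cortex and white matter and of Hcrtr1 and Hcrtr2 in the hypothalamic area were kept in every alternative that gave a value; Hcrtr1 did not pass the count filter when thinned. The hippocampus and meninges had no named cluster at resolution 0.5. Mchr1 in the hippocampus was at 0.11 log2 and not called when thinned. Remote Pmch was 0.316% and 3.25% of the source level with sources of 25% and 75% of the UMIs. Depth limits Hcrtr1 most, with 98 to 265 UMIs per section.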
